A study of Huso dauricus x Acipenser schrenckii with 16 samples.

Results

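The ovaries of 8 high-yield hybrid sturgeon females, whose libraries fell into 2 blocks of 4, are described here without any of the 8 low-yield libraries of the same series, so 8 of 16 samples entered. All 8 were adult hybrid females, with Huso dauricus as the maternal species and Acipenser schrenckii as the paternal one, kept at a fish farm under normal breeding conditions and taken from the population ranked high for caviar yield. No genotype, treatment, age or other label separated the females of this group from each other. High-yield 1, 2, 5 and 6 are called side A and high-yield 3, 4, 7 and 8 side B. The sides were chosen by the gene expression values themselves: they lie at opposite ends of the first principal component of these libraries. Every difference between them is therefore a description of what separated the chosen libraries, and no test or p-value is given for it.

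The sturgeon ovary holds many oocytes at once. A growing oocyte stores maternal mRNA, assembles an egg envelope from zona pellucida (ZP) glycoproteins and takes up yolk precursors made in the liver through receptors of the low-density lipoprotein receptor family. Granulosa and theca cells surround it and make steroid hormones, and a stroma of fibroblasts, vessels and blood cells lies between the follicles. In bulk tissue, fewer cells of a type and less RNA per cell cannot be told apart.

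The libraries were close to identical in pairs: high-yield 1 and 5 (pair 1), 2 and 6 (pair 2), 3 and 7 (pair 3), and 4 and 8 (pair 4). Within a pair the Spearman correlation across kept genes was 0.990 to 0.994, and 0.328% to 0.975% of genes lay 2-fold or more apart. Libraries of the same side but different pairs had 10.8% to 14.7% of genes 2-fold apart, and libraries of opposite sides 28.6% to 33.9%. The 2 libraries of a pair still differed by more than counting noise, with 35.8% to 42.3% of genes outside the range that holds 95% of Poisson counts. Although the series describes separate females, each pair was therefore summed and counted as 1 sample, which leaves 2 samples on each side. Totals ran from 40445929 to 60873931 counts per library. At equal depth, side A had more genes detected (31706 to 32888) than side B (30338 to 31256), and its 10 most abundant genes took 3.14% to 4.21% of counts against 5.52% to 6.61% on side B.

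The tissue label was checked against cell type markers. Levels are given as CPM, counts over a library total scaled by the trimmed mean of M-values (TMM) and set to 1000000. Oocyte genes ranged widely. The gene row described as bucky ball, the organizer of the oocyte's Balbiani body in zebrafish, lay at 814 to 917 CPM on side A. On side B it lay at 904 to 944 CPM. The row for the oocyte transcription factor NOBOX (LOC117413671) lay at only 2.35 to 14.8 CPM over all 8 libraries. Granulosa markers were near the floor. Of 25 rows matched, 4 reached a mean of 1 CPM, their summed level was 7.85 to 10.5 CPM on side A and 13.7 to 19.6 CPM on side B, and the row for inhibin alpha had 0 counts throughout. The follicle-stimulating hormone receptor (LOC117410409) reached at most 0.625 CPM. The bucky ball row thus stood far above the summed granulosa markers in every library, but the NOBOX row did not. Levels of unlike genes do not measure how much RNA came from each cell type.

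**Figure D1:**
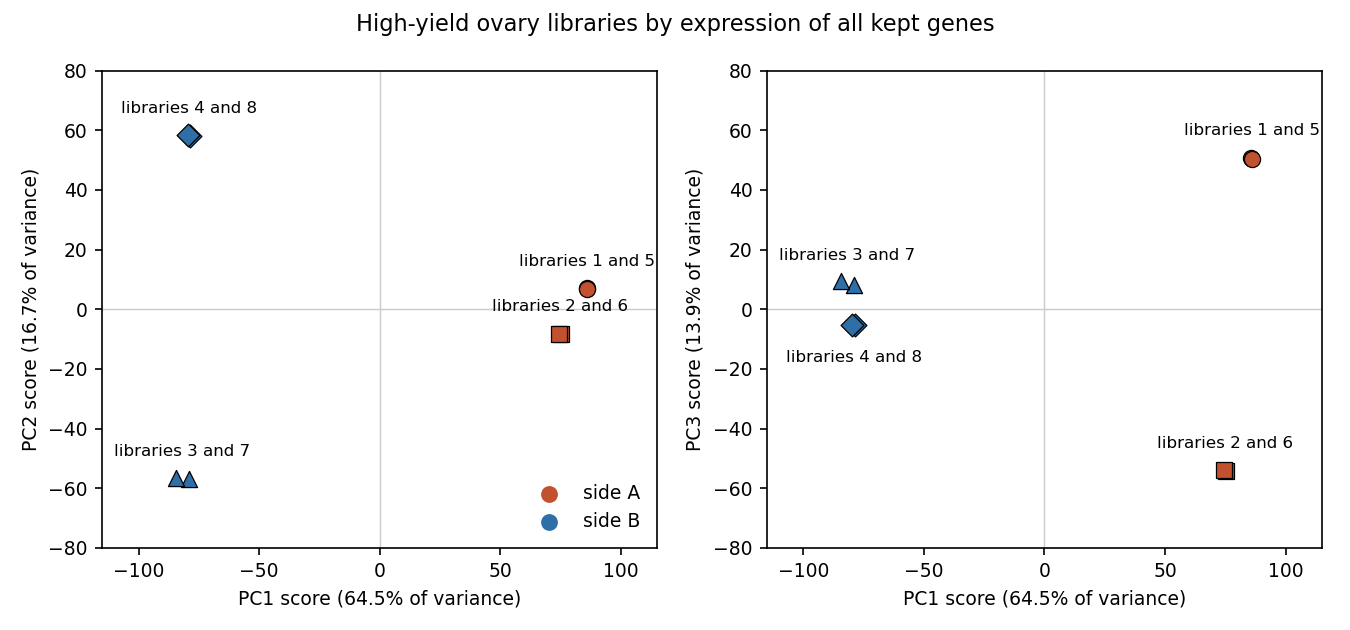
Principal component scores of the 8 high-yield libraries over 23191 kept genes, PC1 against PC2 (left) and PC1 against PC3 (right); colour gives the side and marker shape the pair. Side A lies between 74.5 and 86.2 on PC1 and side B between -84.5 and -78.6, PC2 separates pair 3 from pair 4, and PC3 separates pair 1 from pair 2.

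The first principal component carried 64.5% of the variance across the 8 libraries. The next components split the sides from within: PC2, with 16.7%, put pair 3 near -57 and pair 4 near 58, and PC3, with 13.9%, put pair 1 near 51 and pair 2 near -54. Of 41685 gene rows, 38860 had a count in some high-yield library and 23191 had a mean of at least 1 CPM and were kept. The gene lists were matched by symbol or protein description. A gene is called set apart where all 4 libraries of one side lay above all 4 of the other and the sides differed at least 2-fold. The log2 ratio compares side A with side B over the summed pairs, so a positive value means higher on side A, and the standard deviation (SD) given with it is that between the 2 pairs of a side. By this rule 3272 genes were higher on side A (14.1% of those kept) and 2315 on side B (9.98%), 24.1% in all. These shares describe the contrast that chose the sides and nothing is read from them. Without a size limit, 6295 genes had all of side A above side B, 5257 had the reverse, and in 11639 genes (50.2%) the sides overlapped.

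Genes 4-fold or more apart numbered 915 with side A higher and 559 with side B higher. Among genes set apart, 54 had 0 counts in every library of side B and 8 had 0 counts in every library of side A. The size of the excess on side A depended on scaling, but its direction did not. The median log2 ratio of all kept genes was 0.07 with TMM, 0.29 when divided by library size alone and 0.04 with median-of-ratios size factors, and side A was the higher one in 58.6%, 73.2% and 56.6% of calls respectively. List medians below are therefore given less the median of all kept genes. Beyond the genes taken by a rule, further rows of a list are named because they were set apart, that is, after their values were seen. Counts in each list are to be read against 14.1% for side A and 9.98% for side B, and a share near these says nothing particular about the list. The excess on side A lay among weakly expressed genes: in the lowest of 5 equal bins by mean level (1.00 to 3.22 CPM) 20.1% were higher on side A and 13.6% on side B, and in the highest bin (above 43.5 CPM) 5.26% and 9.10%. Background below means the share over all kept genes, whatever their level. Lists were not compared with genes of like level. A share above, near or below the background may therefore go with level, which was not tested. In lists of weak genes, a row could also pass the filter only through the side where it was high.

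Each side was heterogeneous. Between pair 1 and pair 2 on side A, 1346 genes (5.80%) were set apart with pair 1 higher and 1023 (4.41%) with pair 2 higher. Between pair 3 and pair 4 on side B, 1664 genes (7.18%) were higher in pair 3 and 1340 (5.78%) in pair 4. The 4 comparisons of a pair with a pair of the other side gave 28.1% to 32.8% in both directions together, against 10.2% and 13.0% within the sides. Of the genes higher on side A, 13.7% were also apart between pairs 1 and 2 and 13.9% between pairs 3 and 4. Of those higher on side B, the shares were 12.4% and 16.9%.

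**Figure D2:**
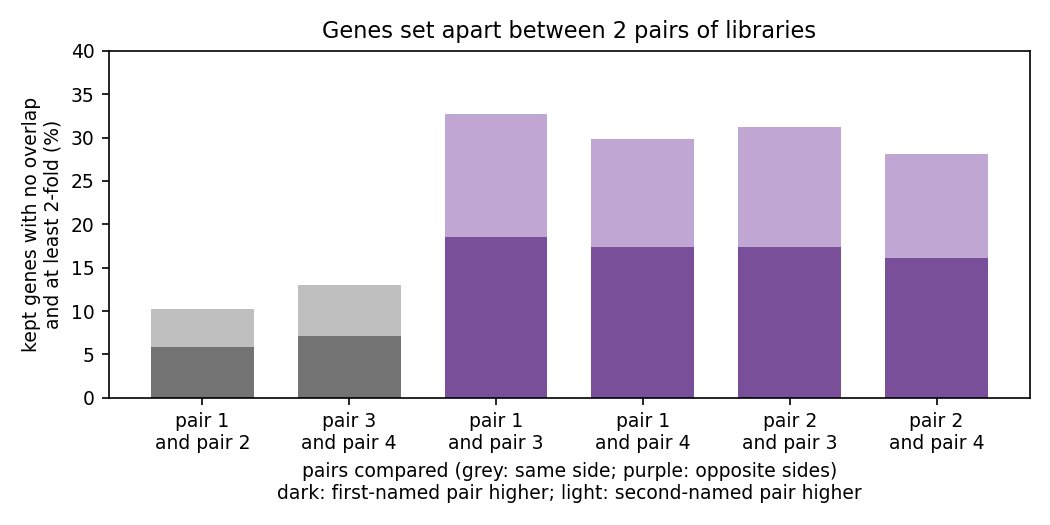
Share of kept genes (%) with no overlap and at least 2-fold between 2 pairs of libraries, for all 6 comparisons of pairs; grey bars compare pairs of the same side and purple bars pairs of opposite sides, and dark and light parts show which pair was higher. The within-side bars reach 10.2% and 13.0% and the 4 between-side bars 28.1% to 32.8%.

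Among the most abundant transcripts the clearest contrast was a tubulin. The row for tubulin alpha-1C (LOC117409337), a building block of microtubules, read 670, 786, 689.7 and 769 CPM in high-yield 1, 2, 5 and 6 and 11840, 7619, 10900 and 7577 CPM in high-yield 3, 4, 7 and 8. All 4 libraries of side B stood about an order of magnitude above side A, with a log2 ratio of -3.67 (SD 0.30, 2 pairs per side). On the length-scaled FPKM values the same row rose from 209 to 225 FPKM on side A to 2231 to 2751 FPKM on side B. Of the 8 rows with most counts, 4 carry the description of one uncharacterized protein. One of these, LOC117970900, was set apart at 1726 to 2095 CPM on side A and 6423 to 9794 CPM on side B (log2 ratio -2.07), LOC117971946 was higher on side B without reaching 2-fold, and the sides overlapped for LOC117963020 and LOC117963001.

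The egg envelope genes were the largest single block of RNA and were rearranged between the sides. ZP glycoproteins form the fibres of the envelope around the egg, and 262 of 272 matched rows were kept. Their summed level was 119322 to 160332 CPM on side A and 143360 to 230326 CPM on side B. The ranges overlapped because pair 2 lay above pair 4, while pair 3 stood far above both. Of the 262 rows, 46 were higher on side A (17.6%, against 14.1% of all kept genes) and 51 on side B (19.5%, against 9.98%), with a list median of -0.25 that turned to 0.082 without pair 3. Within side B, 67 rows were higher in pair 3 and 2 in pair 4, and within side A 39 were higher in pair 2 and 6 in pair 1.

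The ZP subfamilies, sorted by their descriptions, differed in which side held more of the rows set apart. Of 96 ZP3-type rows, 15 were higher on side A (15.6%, near the 14.1% of all kept genes) and 32 on side B (33.3%, against 9.98%). Of 65 ZPAX rows, 11 were higher on side A (16.9%) and 14 on side B (21.5%). ZP2-type rows numbered 37, with 12 higher on side A (32.4%, against 14.1% of all kept genes) and 3 on side B. For the ZP1 type (6 and 1 of 47 rows) and the ZP4 type (2 and 1 of 16) the shares on side A, 12.8% and 12.5%, were close to the background. Many of these envelope rows lay in the highest bin by level, above 43.5 CPM. In that bin 5.26% of all kept genes were higher on side A and 9.10% on side B. No comparison at like level was made, and no test was made of the differences between subfamilies. Rows of similar sequence could have shared reads in the counting, which was not measured.

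Single envelope rows reached large ratios in both directions. ZPAX row LOC117404515 read 1218, 2359, 1194 and 2230 CPM in high-yield 1, 2, 5 and 6 and 7738, 5795, 8059 and 5759 CPM in high-yield 3, 4, 7 and 8. Side B was higher throughout and pair 2 lay above pair 1, with a log2 ratio of -2.02 (SD 0.52). A second ZPAX row, LOC117404826, was at 1091 to 1707 CPM on side A and 2582 to 6659 CPM on side B (log2 ratio -1.62). The ZPAX rows with the highest levels, LOC117404516 and LOC131721949, were higher in every library of side B but less than 2-fold (log2 ratios -0.88 and -0.91). The ZP3-type row LOC131698620 stood at 7.45 to 9.08 CPM on side A and 189 to 287 CPM on side B, a log2 ratio of -4.69 (SD 0.08).

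Other envelope rows were absent or nearly so on side B. The ZP3-type row LOC131698531 read 12.2, 38.7, 14.1 and 31.5 CPM on side A and had 0 counts in all 4 libraries of side B, at least 1390-fold higher against a floor of 3 counts over that side. The ZP2-like row LOC117965228 read 14.9, 13.5, 28.4 and 14.2 CPM on side A and again had 0 counts on side B, at least 1050-fold higher on the same floor. A further ZP2-like row, LOC131703188, was at 96.3, 78.1, 67.8 and 26.3 CPM on side A, at 0 in pair 3 and at 9.03 and 6.63 CPM in pair 4. Chosen after its values were seen, LOC117434458, a ZP3-type row, showed the same kind of gap inside side B: it read 197 and 169 CPM in pair 3 and had 0 counts in both libraries of pair 4, while side A lay at 107 to 133 CPM.

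**Figure D3:**
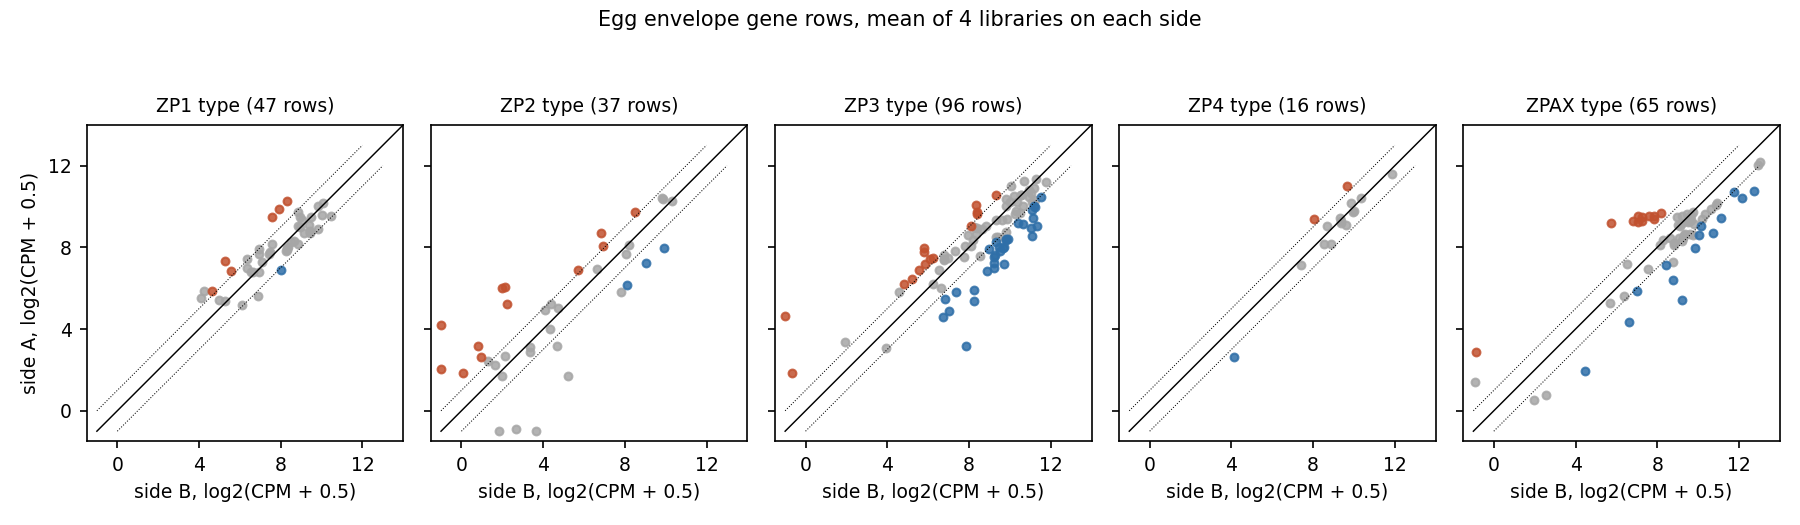
Mean level of each kept egg envelope row on side B (x axis) and side A (y axis), log2(CPM + 0.5), by ZP type; red points were set apart with side A higher, blue points with side B higher, grey points were not set apart, the solid line marks equal levels and the dotted lines 2-fold. Blue points outnumber red ones among ZP3-type rows (32 against 15), and red ones outnumber blue among ZP2-type rows (12 against 3).

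Rows that share a protein description but lie at different loci, common in the duplicated sturgeon genome, could be set apart in opposite directions, though few were. Of 6254 descriptions with exactly 2 kept rows, both rows were higher on side A in 306, both on side B in 172, and the rows went opposite ways in 66 (1.06%). Among all 10541 descriptions, 225 had rows set apart in both directions. The examples that follow come from those 225 and may have more than 2 kept rows. They were chosen after their values were seen, as the abundant ones. For cyclin-B1, the partner of the kinase that drives meiotic maturation, LOC117966120 was at 1391 to 1556 CPM on side A and 478 to 999.6 CPM on side B, and LOC117963921 at 175 to 199 CPM and 445 to 689.9 CPM. The first was thus higher on side A (log2 ratio 1.04) and the other on side B (-1.58). Nucleophosmin, a nucleolar chaperone of histones, showed the same with LOC117431691 (log2 ratio 1.15) and LOC117973832 (-1.15).

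Ferritin heavy chain, which stores iron, was at 566 to 585 CPM on side A and 212 to 309.8 CPM on side B for LOC117432337, and at 33.9 to 79.8 CPM and 143 to 196 CPM for LOC117434935. Claudin-4, a tight junction protein, gave log2 ratios of 1.18 for LOC117398316 and -1.28 for LOC117405781. For the 11-beta-hydroxysteroid dehydrogenase 1-like protein the values were 1.67 for LOC117401269 and -1.42 for LOC117966169. When kept rows with one description were summed, 12738 units remained, of which 12.4% were higher on side A and 8.26% on side B. How far reads were shared between such copies was not tested.

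**Figure D4:**
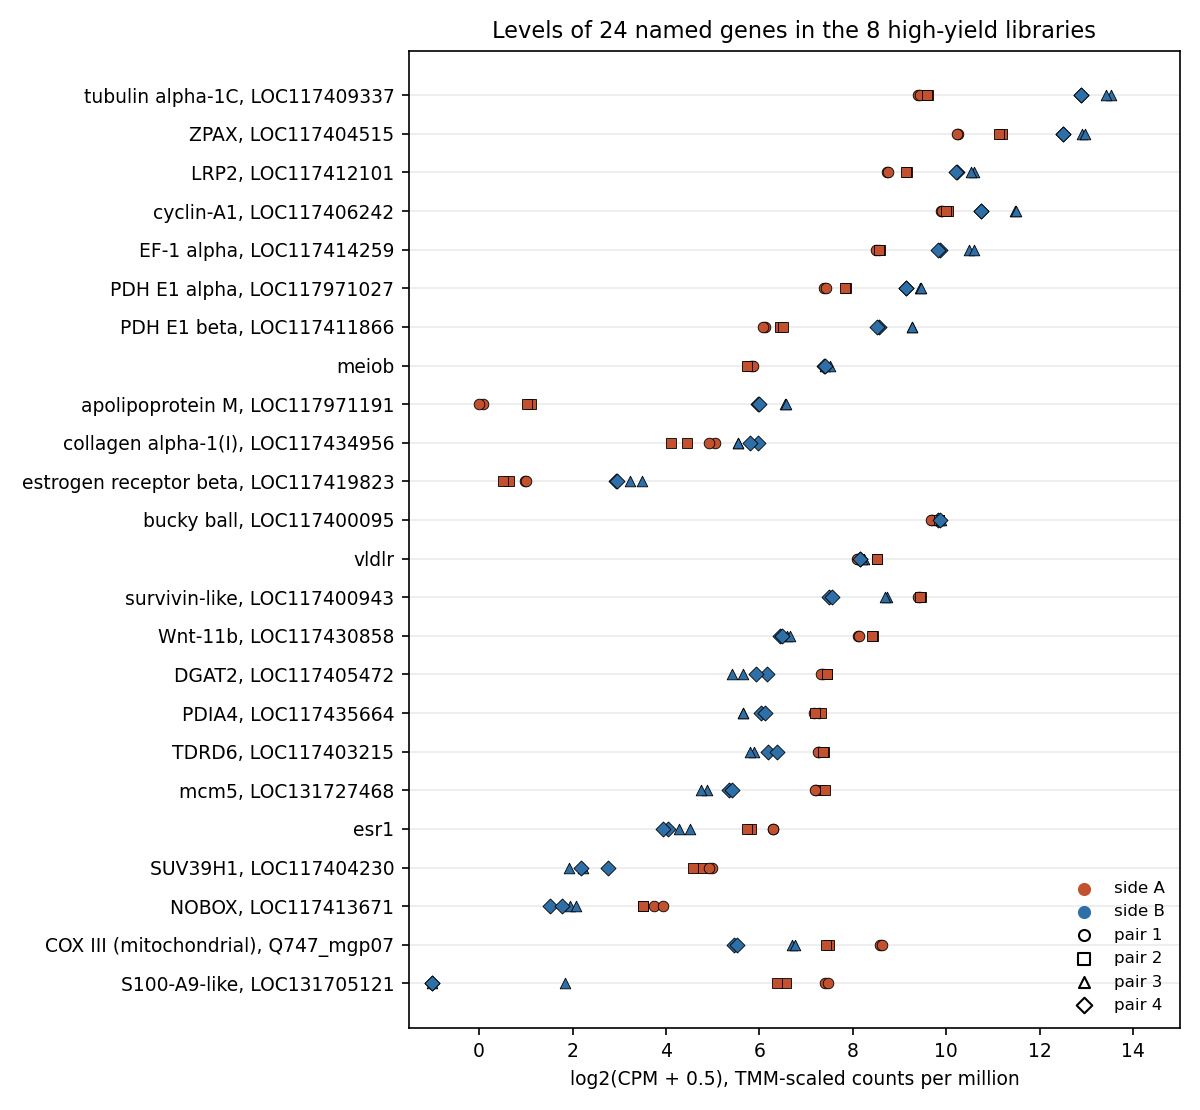
Levels of selected named genes in each of the 8 high-yield libraries, as log2(CPM + 0.5); red symbols are side A, blue symbols side B, and the marker shape gives the pair. The tubulin alpha-1C row lies at 670 to 786 CPM on side A and 7577 to 11840 CPM on side B, whereas the bucky ball and vldlr rows overlap between the sides.

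Genes of oocyte growth showed a mixed pattern. Growth/differentiation factor 9 (LOC117431139), an oocyte-secreted signal to granulosa cells, read 8.21, 11.6, 9.02 and 9.93 CPM on side A and 14.5, 25.7, 16.2 and 25.0 CPM on side B. The sides did not overlap, and the log2 ratio was -1.01 (SD 0.38). Its relative bone morphogenetic protein 15 (LOC117430234) was higher in every library of side B but less than 2-fold (-0.47). NOBOX (LOC117413671), a transcription factor of early oocytes in mammals, was at 10.9 to 14.8 CPM on side A and 2.35 to 3.73 CPM on side B (1.84, SD 0.26). Of 9 rows in this list, 1 was higher on each side (11.1%), near the background of 14.1% and 9.98%. Growth/differentiation factor 9 matched 2 rows, of which only LOC117431139 is given.

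None of the 10 rows for stored-RNA proteins of early oocytes was set apart: zygote arrest protein 1 (LOC117406578) lay at 562 to 909 CPM on side A and 710.5 to 1060 CPM on side B. The vasa row LOC117409552, an RNA helicase of the germ line, also overlapped (-0.24). Among 21 germ granule and piRNA rows, 2 were higher on side A (9.52%) and 1 on side B (4.76%), both shares below the background. Tudor domain-containing protein 6 (LOC117403215), a germ granule scaffold, was at 152 to 166 CPM on side A and 55.0 to 82.4 CPM on side B (1.25), and tdrkh, which acts in piRNA trimming in mice, gave 1.20.

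Of 22 kept rows matched by name to meiotic chromosome genes, 4 were higher on side A (18.2%, against 14.1%) and 5 on side B (22.7%, against 9.98%). Some entered by description alone and their role was not tested. Examples are LOC117433274, synaptonemal complex protein SC65 (-1.31), and LOC117428534, meiosis-specific nuclear structural protein 1-like (1.24). The gene meiob, needed for meiotic recombination in mice, read 56.4, 55.5, 58.0 and 52.4 CPM on side A and 169, 167, 182 and 169.5 CPM on side B. Within each side its values hardly moved, and the log2 ratio was -1.63 (SD 0.05). The meiosis-specific kinetochore protein row LOC131699659 went the other way (59.5 to 111 CPM on side A, 29.6 to 46.0 CPM on side B, 1.07). Rows for synaptonemal complex protein 3, part of the axis that pairs chromosomes, split: sycp3 at -2.43 and LOC117396391 at 1.31, both below 11 CPM.

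Abundant cyclins of maturation were set apart in both directions. The cyclin-B1 row LOC117966120, given above, was higher on side A (1.04). Cyclin-A1 (LOC117406242) was at 951, 1045, 957 and 1019 CPM on side A and 2823, 1718, 2889 and 1706 CPM on side B (log2 ratio -1.16, SD 0.38). Cyclin-B2 (LOC117429551) was at 656 to 852 CPM and 1090 to 2319 CPM (-1.09), with pair 3 about 2-fold above pair 4. The most abundant cyclin-B1 row, LOC117404010, overlapped between the sides (0.30), as did mos, the kinase that starts maturation (-0.58), wee2 (0.08) and the cyclin-dependent kinase 1 row LOC117418033 (0.45). Of 52 rows, 6 were higher on side A (11.5%) and 7 on side B (13.5%), near the background.

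Of 56 DNA replication and repair rows, 7 were higher on each side (12.5%), close to the background. The row for mcm5 (LOC131727468), a subunit of the replicative helicase, was at 147, 157, 145 and 169.7 CPM on side A and 28.7, 40.6, 26.2 and 42.1 CPM on side B. It was set apart with side A higher (2.19, SD 0.31), whereas gins3, a partner of that helicase, was higher on side B (-1.18). Of 74 spindle and kinetochore rows, 8 were higher on side A (10.8%) and 4 on side B (5.41%), both shares below the background. Of 41 nuclear pore rows only the GLE1 row LOC117396910 was set apart (1.08).

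Among genes of yolk uptake, the rows of one large receptor differed from each other. The row for low-density lipoprotein receptor-related protein 2 (LOC117412101), megalin in mammals and an endocytic receptor, read 423, 574, 429 and 564 CPM on side A and 1546, 1195, 1479 and 1190 CPM on side B. Every library of side B was higher, and the log2 ratio was -1.44 (SD 0.27). A further row of the same description, LOC117426871, overlapped at 445 to 536 CPM on side A and 509.7 to 690 CPM on side B (-0.28). Weaker rows of this receptor were also set apart with side B higher. They were LOC117973153 (-1.11, at most 14.9 CPM) and LOC117426690 (-2.09, at most 3.74 CPM). The vitellogenin receptor vldlr, which binds yolk precursors, overlapped at 270.1 to 368 CPM on side A and 284 to 300.2 CPM on side B. The cathepsin L1 row LOC117404126, a yolk-processing protease, also overlapped (-0.05). Of 63 rows, 1 was higher on side A (1.59%), the proton pump subunit D row LOC117421499 (1.25). The 4 higher on side B (6.35%) were the receptor rows set apart above and another proton pump row, subunit S1-like (LOC117419573, -4.89). Both shares lay below the background.

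Rows of the pyruvate dehydrogenase E1 subunits were higher on side B. Pyruvate dehydrogenase joins glycolysis to the cycle in mitochondria. Its E1 alpha row LOC117971027 was at 166, 231, 170.5 and 227 CPM on side A and 695, 565, 704 and 560.5 CPM on side B (log2 ratio -1.68, SD 0.27). The E1 beta row LOC117411866 was at 68.6, 86.9, 67.3 and 90.3 CPM and 617, 375, 618 and 366 CPM (-2.62, SD 0.41). In both rows pair 3 was the highest of all pairs and pair 1 the lowest.

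Of 38 kept rows in the list of pyruvate dehydrogenase and citric acid cycle genes, 12 were higher on side B (31.6%, against 9.98% of all kept genes) and 0 on side A, and the median was -0.66. Of those 12, 8 were E1 subunit rows, out of 9 kept, and 7 of the 8 share the beta subunit's description, so they may share reads. Among the other 29 rows, 4 were higher on side B (13.8%, nearer the background): malate dehydrogenase LOC131700533 (-1.05), aconitase LOC131735598 (-1.32), isocitrate dehydrogenase LOC117963107 (-1.26) and idh3g (-1.34). Fumarate hydratase, fh, overlapped at 178 to 199 CPM on side A and 195 to 206 CPM on side B.

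Glycolysis, the cytosolic breakdown of glucose, had a median of -0.47 over 42 rows with 5 higher on each side (11.9%). Its most abundant gene, gapdh, was higher in every library of side B but not 2-fold (1861 to 2352 CPM on side A, 2686 to 3850 CPM on side B). The aldolase C row LOC117429806 was higher on side A (1.04).

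Respiratory chain transcripts are given by the genome that encodes them. Of 140 nuclear rows for the chain and the ATP synthase, 13 were higher on each side (9.29%). This was below the 14.1% of all kept genes on side A and close to the 9.98% on side B. In the highest bin by level those shares were 5.26% and 9.10%, and no comparison at like level was made. The ATP synthase row LOC117414960 was at 144 to 196 CPM on side A and 375 to 519.9 CPM on side B (-1.41). The nuclear list's median of -0.24 turned to 0.019 without pair 3. Of 12 kept transcripts of the mitochondrial genome, 7 were higher on side A (58.3%, against 14.1% of all kept genes) and 0 on side B. Their median was 1.51. The most abundant, cytochrome c oxidase subunits II and 1 (Q747_mgp10 and Q747_mgp11), overlapped between the sides (0.60 and 0.62). Apart from subunit III, the transcripts set apart had means of only 2.42 to 7.94 CPM.

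Cytochrome c oxidase subunit III, encoded in mitochondrial DNA (Q747_mgp07), read 384, 178, 392 and 171 CPM on side A and 103, 43.6, 108 and 45.7 CPM on side B. Side A was higher, but each side spanned about 2-fold between its pairs, and the log2 ratio was 1.91 (SD 0.84). The summed mitochondrial level was 1559 and 1574 CPM in pair 1, 681 to 710 CPM in pair 2 and 514 to 628 CPM on side B, so pair 1 alone stood far out, and all 12 transcripts were set apart between pairs 1 and 2. Without pair 1 the median was 0.95. Libraries were made by poly(A) capture, and its yield on mitochondrial transcripts was not tested.

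Ribosomal protein genes were higher in pair 3 rather than on side B as a whole. Over 148 kept cytosolic rows the summed level was 30115 to 31773 CPM on side A, 56340 and 56401 CPM in pair 3 and 32891 and 33730 CPM in pair 4. Rows higher on side A numbered 4 and on side B 10 (6.76%, below the background), but 48 were set apart between pair 3 and pair 4. The median of -0.47 shrank to -0.067 without pair 3. The L10a row LOC117394819 was the most abundant of those set apart, at 329 to 353 CPM on side A and 544 to 1069 CPM on side B (-1.20).

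Among 134 mitochondrial ribosomal protein rows, 10 were higher on side A (7.46%, below the background) and 23 on side B (17.2%, against 9.98%). The gene mrpl10, a large subunit protein, was at 63.8, 80.6, 65.6 and 78.6 CPM on side A and 222, 191, 238 and 200.2 CPM on side B (-1.56, SD 0.19). The list's median of -0.39 became -0.12 without pair 3. Of 97 translation factor rows, 2 were higher on side A (2.06%) and 6 on side B (6.19%), both shares below the background. The 6 included the elongation factor 1-alpha row LOC117414259, which brings aminoacyl-tRNA to the ribosome. It was at 359.8 to 381 CPM on side A and 906 to 1551 CPM on side B (-1.65). Of 92 proteasome rows, 3 were higher on side A (3.26%) and 7 on side B (7.61%), again below the background. The alpha type-6 subunit LOC117407244 was at -1.15.

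Genes of cell death control included inhibitors and caspases that were higher on side A. Of 35 kept rows, 13 were higher on side A (37.1%, against 14.1% of all kept genes) and 4 on side B, and the median of 0.26 turned to -0.0057 without pair 2. Of those 13, 7 were rows for inhibitors of cell death and 6 were caspases, a protease family of which some members start or carry out cell death. The survivin-like row LOC117400943, an inhibitor that also acts in chromosome segregation, read 669, 707, 688 and 693 CPM on side A and 422, 178, 415 and 188 CPM on side B. The sides did not overlap, though pair 3 was above pair 4 by more than 2-fold (1.31, SD 0.59).

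A further survivin-like row, LOC131720863, followed it (1.64), while birc5a went the other way without reaching 2-fold (-0.76). The MCL1 row LOC131703291, a survival protein of the BCL2 family, was at 56.0 to 69.2 CPM on side A and 1.54 to 3.27 CPM on side B (4.36). Caspase-9 (LOC117968643) was at 22.5 to 30.0 CPM and 1.51 to 6.56 CPM (2.78), and caspase-3 (LOC117409020) gave 1.53. The rows for caspase-8 split, LOC117408587 being higher on side A (1.79) and LOC117414260 on side B (-2.16). Rows for caspase-1 split as well, LOC131701741 (2.64) and LOC117430514 (-1.095). LOC131701741 read 18.6 CPM in pair 2 and 0.696 CPM in pair 1, and caspase-7 (LOC117414465, 1.47) read 4.74 and 0.774 CPM. The other rows higher on side B were caspase-13-like (LOC117413658, -2.46) and bcl2l11 (-1.30).

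Signalling genes of the Wnt pathway, which acts in ovary differentiation and in early embryos, had 12 of 57 rows higher on side A (21.1%, against 14.1%) and 7 on side B (12.3%, against 9.98%). Wnt-11b (LOC117430858), a maternal ligand in frogs, read 278, 344, 282 and 339.9 CPM on side A and 96.4, 86.6, 100.3 and 88.7 CPM on side B. All of side A was higher, with a log2 ratio of 1.73 (SD 0.17), and a further row with the same description, LOC131697853, gave 1.93. Secreted frizzled-related protein 2-like (LOC117973035), which binds Wnt ligands, was also higher on side A (1.14), as was Wnt-5a (LOC117412611, 1.06). The receptor frizzled-7 (LOC117426363) and Wnt-10a (LOC117427102) were higher on side B (-2.38 and -2.94). The beta-catenin row LOC117400133, the pathway's transducer, was higher in all side A libraries but by less than 2-fold (0.27). The list median of 0.20 became -0.16 without pair 1.

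TGF-beta family signalling had 3 of 34 rows higher on side A (8.82%) and 2 on side B (5.88%), both shares below the background. The type-1A receptor for bone morphogenetic proteins (LOC117414699) was at 19.3 to 28.9 CPM on side A and 6.89 to 12.1 CPM on side B (1.28).

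Steroid receptor rows were set apart in both directions. The estrogen receptor gene esr1, a hormone-activated transcription factor, read 78.2, 56.3, 77.7 and 52.5 CPM on side A and 22.3, 16.0, 18.9 and 14.9 CPM on side B (log2 ratio 1.85, SD 0.32). Estrogen receptor beta showed the reverse: LOC117419823 read 1.48, 1.05, 1.49 and 0.924 CPM on side A and 8.95, 7.12, 10.8 and 7.25 CPM on side B (-2.39, SD 0.31), and its further row LOC117963936 gave -2.40. In none of these rows did the sides overlap. Of 2 rows matched to esr1, only the more abundant is given. The androgen receptor (LOC117963036, -1.92), a progesterone receptor row (LOC117406171, -1.36) and the luteinizing hormone receptor (LOC117402858, -1.53) were higher on side B at levels of at most 10.4 CPM. The anti-Muellerian hormone receptor (LOC117400940) was higher on side A (1.40).

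Of 16 kept receptor rows, 2 were higher on side A (12.5%, near the 14.1% of all kept genes) and 5 on side B (31.2%, against 9.98%). Of the latter, LOC117963936 read 0.376 to 0.588 CPM on side A and LOC117402858 read 0.207 to 0.944 CPM. Both passed the filter of 1 CPM through side B, where they were high, so nothing is read from the 31.2%. Steroid synthesis genes were weak throughout, with 8 of 18 rows kept and 2 higher on side A (25.0%, against 14.1%). The row for 3-beta-hydroxysteroid dehydrogenase (LOC117406856) was one, at 3.48 to 9.08 CPM on side A and 0.215 to 1.66 CPM on side B. The steroidogenic acute regulatory protein row LOC117415810, which carries cholesterol into mitochondria, had counts in pair 1 alone (2.60 and 2.62 CPM) and 0 in the other 6 libraries.

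Cholesterol synthesis had 2 of 12 rows higher on side A (16.7%, against 14.1%) and 4 on side B (33.3%, against 9.98%). The 4 were both rows for lanosterol 14-alpha demethylase, LOC117399525 (-1.75) and LOC117435357 (-1.55), and both rows for 7-dehydrocholesterol reductase, dhcr7 (-1.27) and LOC117435021 (-1.87). Among 39 lipid droplet and fatty acid rows, 5 were higher on side A (12.8%) and 3 on side B (7.69%), near the background. Diacylglycerol acyltransferase 2 (LOC117405472), which makes triacylglycerol, read 164, 175, 159.6 and 174 CPM on side A and 49.5, 71.5, 42.2 and 60.4 CPM on side B, higher throughout on side A (1.61, SD 0.28). Perilipin-2 (LOC117409566), a droplet coat protein, was higher on side B without reaching 2-fold (-0.40).

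Protein folding genes of the endoplasmic reticulum had 5 of 27 rows higher on side A (18.5%, against 14.1%) and 0 on side B, with a median of 0.32. Protein disulfide-isomerase A4 (LOC117435664), which forms disulfide bonds, was at 155, 158, 144 and 146 CPM on side A and 49.9, 65.1, 50.0 and 68.7 CPM on side B (1.38). The others were TMX3 (LOC117400630, 1.18), the chaperone hypoxia up-regulated protein 1 (LOC117966665, 1.45), the stress-response transcription factor atf4a (1.55) and a calnexin-like row (LOC117411936, 1.68). Heat shock chaperones and their DnaJ partners had 3 of 23 rows higher on side A (13.0%) and 1 on side B (4.35%), while their most abundant member, hsp90ab1, was higher on side B but not 2-fold (-0.53). Immediate early and stress genes had 3 of 14 rows higher on side A (21.4%, against 14.1%) and 0 on side B, with a median of -0.001. The immediate early response 2 row LOC131706594 led them, at 6.47 to 12.2 CPM on side A and 1.07 to 1.53 CPM on side B.

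Enzymes that write or erase chromatin methylation had 12 of 62 rows higher on side A (19.4%, against 14.1%) and 1 on side B (1.61%, against 9.98%). SUV39H1 (LOC117404230), a histone H3 lysine methyltransferase of heterochromatin, read 31.1, 26.7, 29.9 and 23.5 CPM on side A and 4.19, 4.00, 3.32 and 6.29 CPM on side B. The sides were far apart and the pairs within each were close (2.54, SD 0.26). The demethylase row for lysine-specific demethylase 4C (LOC117417234, 1.29) and the methyltransferase SETD2 (LOC117400236, 1.40) were also higher on side A. The dioxygenase TET3 (LOC117415695), which oxidizes methylated cytosine, was the row higher on side B (-1.59). EZH2 (LOC117400656), the abundant Polycomb methyltransferase, overlapped (0.02).

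Core and linker histones had 25 of 117 rows higher on side A (21.4%) and 13 on side B (11.1%), and 19 were higher in pair 3 than in pair 4. The H2B row LOC131737772 was higher on side A (1.04), and LOC117431319, described as a centromeric H3-like histone, was higher on side B (-1.02). Splicing factors had 17 of 139 rows higher on side A (12.2%) and 5 on side B (3.60%), both shares below the background. The control of stored maternal mRNA had 5 of 41 rows higher on side A (12.2%) and 3 on side B (7.32%), near the background. The deadenylase complex subunits cnot10 (1.38) and CCR4-NOT subunit 7 (LOC117408432, -1.01) took opposite directions, and both rows of cytoplasmic polyadenylation element-binding protein, LOC117427681 and LOC117429053, overlapped.

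Markers of cells around the oocyte also moved. Fibroblast and matrix markers had 12 of 28 kept rows higher on side B (42.9%, against 9.98%) and 0 on side A, with a median of -0.87. Their summed level was 105 to 203 CPM on side A, lower in pair 2 than in pair 1, and 223 to 328 CPM on side B, higher in pair 4. Of 61 matched rows, 4 had 0 counts in every library: a fibulin-1 row, a tenascin row, a tenascin-X-like row and a fibrillin-3-like row. The collagen alpha-1(I) row LOC117434956, the main fibrous collagen, read 32.9, 21.2, 29.9 and 16.7 CPM on side A and 45.8, 62.1, 46.4 and 55.2 CPM on side B (-1.08, SD 0.40). The collagen alpha-1(VI) rows LOC131727273 (-2.02) and LOC117410999 (-1.78) followed it, whereas fibronectin (LOC117409768) overlapped, at 20.6 to 59.2 CPM on side A and 12.1 to 32.1 CPM on side B. Fibulin-7 (LOC117410703) was set apart largely through pair 4, at 62.0 and 64.9 CPM there against 8.57 and 11.2 CPM in pair 3.

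Of 6 kept endothelial markers, 3 were higher on side A (50.0%, against 14.1%) and 0 on side B, out of 26 matched with no row at 0 in every library. Their sum was 28.1 to 40.4 CPM on side A and 20.3 to 26.5 CPM on side B. The rows set apart were von Willebrand factor LOC117420045 (2.81) and the endothelial receptor Tie-1, LOC117416718 (2.14) and LOC117400821 (2.35). Other rows for von Willebrand factor did not follow: LOC117415837 was higher in every library of side B but not 2-fold (-0.37), and LOC117419959 overlapped (0.12). The row for vascular endothelial growth factor receptor 2 (LOC117420387) stayed below 1 CPM and was higher in every library of side B (-0.73). The list's median was 1.06, and -0.20 with no filter on low levels. LOC117420045 read 5.17 to 9.19 CPM on side A and 0.268 to 1.51 CPM on side B. LOC117400821 read 4.69 to 5.52 CPM and 0.414 to 0.692 CPM. Both rows passed the filter through side A, where they were high, so nothing is read from the share or the median. Of the 4 kept granulosa markers, whose sums are given above, 1 was set apart with side B higher, inhibin beta B (LOC117426331, -1.60). The rows for anti-Muellerian hormone were not: LOC117401371 was higher in every library of side B but not 2-fold (-0.86), and LOC117428873 overlapped (-0.23). Smooth muscle and pericyte markers had 1 of 16 kept rows set apart, with side B higher, and sums of 77.4 to 133 CPM and 114 to 132 CPM that overlapped. Among the 31 matched, 1 actin and 2 myosin-11-like rows were at 0.

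Leukocyte markers were weak: 7 of 28 were kept, 1 was higher on side A and 2 on side B, and sums of 16.8 to 22.5 CPM on side A and 20.1 to 28.5 CPM on side B overlapped. A complement C1q subunit A row and 3 rows of macrophage-expressed gene 1 were at 0. The common leukocyte antigen row LOC117401721 was higher on side A (1.86) and coronin-1A (LOC117398960), an actin-binding protein of leukocytes, on side B (-3.09). Erythrocyte markers had 1 of 3 kept rows set apart on each side and sums of 17.3 to 61.7 CPM and 20.0 to 55.6 CPM. Adipocyte markers (0 of 3 kept), theca markers (0 of 2) and surface epithelium markers (3 of 12 higher on each side) gave sums that overlapped between the sides. The part these cells had in the differences of other genes was not tested.

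**Figure D5:**
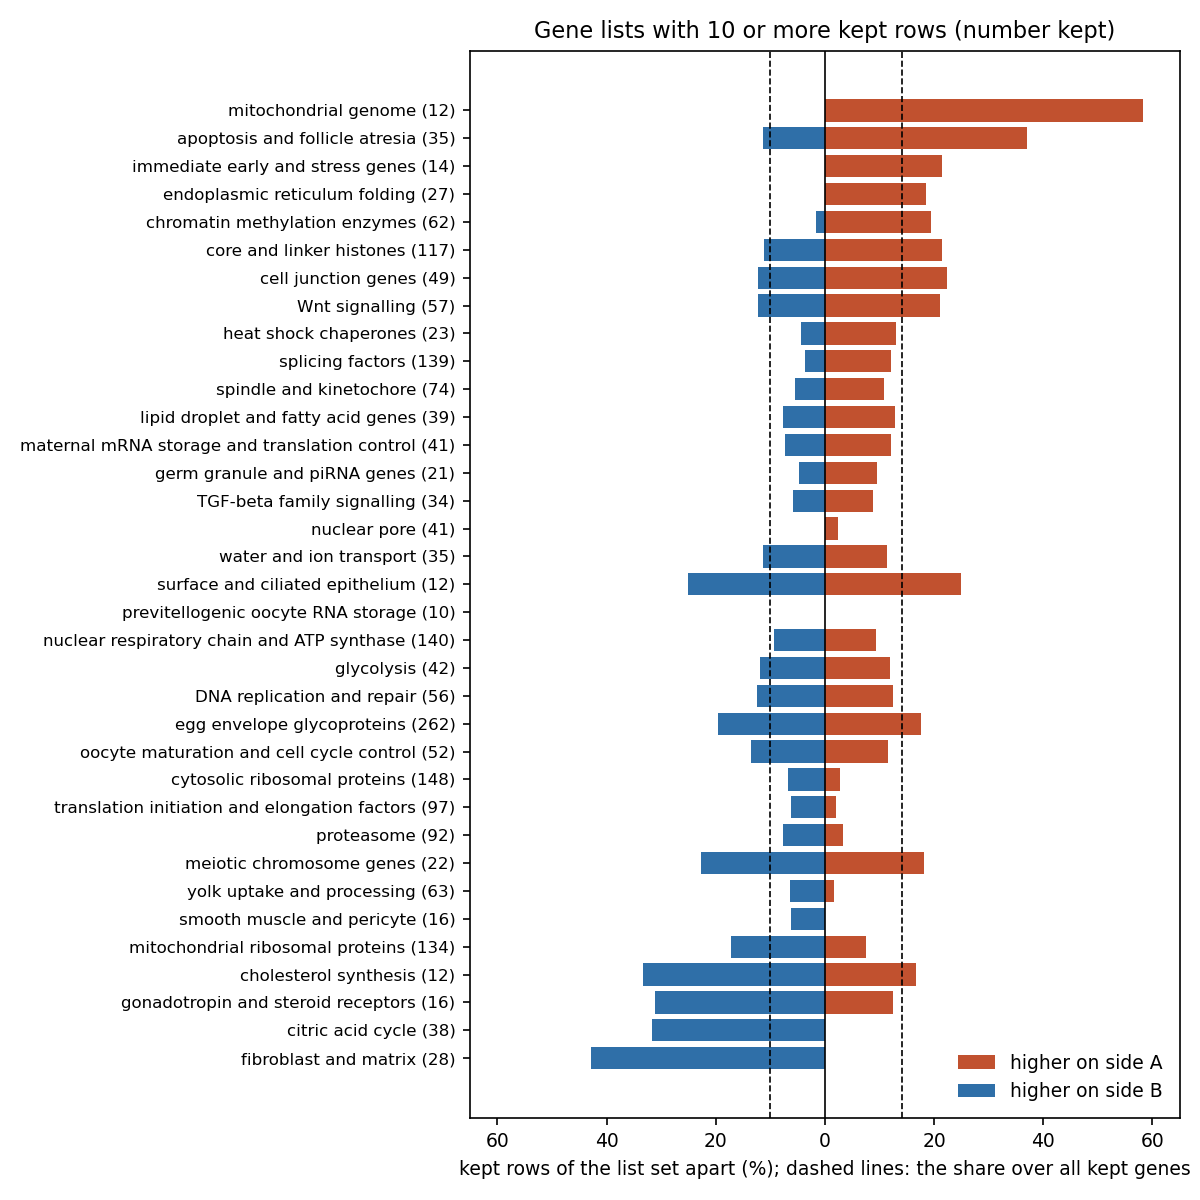
Share of the kept rows of each gene list that was set apart (%), to the right where side A was higher and to the left where side B was higher, for lists with at least 10 kept rows (number kept in brackets); dashed lines mark the share over all kept genes, 14.1% and 9.98%. The mitochondrial genome reaches 58.3% on side A, and fibroblast and matrix markers 42.9% and the list labelled citric acid cycle 31.6% on side B. Of the 12 rows behind that 31.6%, 8 are pyruvate dehydrogenase E1 subunit rows. The other 29 kept rows of that list give 13.8%.

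The largest ratios belonged to genes that were almost silent on one side. The row LOC131705121, described as S100-A9-like, a calcium-binding protein, read 168, 93.8, 178 and 83.0 CPM on side A and 3.07, 0, 0 and 0 CPM on side B, a log2 ratio of 7.06 that 1 library of side B, high-yield 3, kept from a count of 0. A further S100-A9-like row, LOC117968294, was at 48.8 to 141 CPM and 0.602 to 2.51 CPM (5.53). Cyclin-C (LOC117410372), a subunit of the Mediator kinase module, was at 19.6 to 22.9 CPM on side A and at most 0.295 CPM on side B. Poly [ADP-ribose] polymerase 9 (LOC117400403, 5.46), protocadherin-10 (LOC117408621, 5.12) and a partial CD86-like row (LOC117407081, 5.03) followed. A partial CD22-like row, LOC117433852, was at 45.1 and 43.1 CPM in pair 1, at 5.75 and 4.22 CPM in pair 2 and at 0 on side B.

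In the other direction, apolipoprotein M (LOC117971191), a lipid carrier, read 0.552, 1.67, 0.492 and 1.52 CPM on side A and 93.1, 62.1, 94.3 and 63.6 CPM on side B (-5.72, SD 0.59). A further row of the same description, LOC117433639, gave -5.34. Opsin-5 (LOC117403213), a light-sensitive receptor, was at 0 to 2.12 CPM on side A and 39.4 to 40.1 CPM on side B. The row for V-type proton ATPase subunit S1-like (LOC117419573) gave -4.89, cortexin-3 (LOC117962514) -4.70 and cntnap1, a neuronal junction protein, -4.60. The gap junction epsilon-1-like row LOC117410646 was at 0.136 to 0.489 CPM on side A and 10.5 to 50.2 CPM on side B. The list matched to cell junction genes had 11 of 49 rows higher on side A (22.4%, against 14.1%) and 6 on side B (12.2%, against 9.98%). One of the 11, LOC117403082, carries the description CASP8-associated protein 2 beside that of a gap junction protein, so its reads may belong to another gene. Water and ion transport genes had 4 of 35 on each side (11.4%), close to the background.

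Differences inside a side could be as large as those between sides. The genes named here were chosen after their values were seen, as the largest within a side at a mean of at least 20 CPM. Ovochymase-2 (LOC117432097), an egg protease in frogs, read 0.624 and 0.764 CPM in pair 1, 174 and 166 CPM in pair 2 and 0 to 3.63 CPM on side B. The CD276 row LOC117967193 was at 87.0 and 89.0 CPM in pair 1 and at most 6.11 CPM elsewhere. On side B, the initiation factor 4A-II row LOC117423273 was at 122 and 120 CPM in pair 3 and 1.96 to 7.88 CPM in the other 6 libraries. Fibrinogen gamma, fgg, was at 229 CPM in both libraries of pair 4, at 37.7 and 40.1 CPM in pair 3 and at 5.19 to 14.1 CPM on side A.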

How the data were processed

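Poly(A) RNA from ovary was sequenced as strand-marked libraries, and the RNA integrity number had to exceed 7, per the labels' protocols. Reads were trimmed with cutadapt 1.9, per the submitters' processing notes; no source used here names the aligner, the counter, the genome build or the annotation. The authors deposited 1 table of counts per gene with FPKM values beside them, per the file headers. At low counts the ratio of counts to FPKM was not fixed. The row for forkhead box protein L2 (LOC117416901) had 2 counts in both high-yield 5 and high-yield 6, at 0.005794 and 0.008504 FPKM. Per the same table, 3807 rows carry a gene symbol and 37878 a locus number, and the protein descriptions are best matches that may be wrong for single rows; a few symbols and descriptions disagree. Rows of similar copies may share reads, which was not measured.

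The analysis used the count columns of the 8 high-yield libraries. TMM factors came from edgeR 4.0.16 in R 4.3.3 and median-of-ratios factors from DESeq2 1.42.0; the rest ran in Python 3.11.15. Libraries n and n + 4 were summed to pairs, and log2(CPM + 0.5) was averaged over the 2 pairs of a side. Genes with a mean of at least 1 CPM were kept. The comparison step was run on simulated counts scaled by library total, without TMM. Few genes were changed there, equally in both directions, and the spread between pairs was set rather than taken from these data. That run therefore does not cover the scaling or a contrast as wide as the present one. The recovery it had to reach was set after its output was seen. No test was made, since the sides were grouped on PC1 scores computed from the same values. The authors' methods name no comparison inside the high-yield group.

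The sides and the 43 gene lists were chosen with earlier results of these data known, and the lists were trimmed after values were seen. Named genes are the 12 largest ratios in each direction at a mean of at least 5 CPM with an informative name, up to 4 most abundant and 2 most abundant set-apart rows per list, the most abundant row for each of 30 listed genes, and the 8 rows with most counts, 248 in all; other named rows are marked as chosen after their values were seen. Of the 30 genes, figla, dazl, cyp19a1, nanos3 and hbb matched no row. Alternatives covered scaling, pseudocount, filter, single libraries of each pair, FPKM, each pair left out, and summing rows of one description, the last added after the data were seen. A side with 0 counts is bounded by a floor of 3 counts over its 4 libraries, which covers counting error only.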

Additional observations from a re-analysis of the deposited data

Results flagged for a closer look

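With each pair counted as 1 sample, 13 of 289 levels (named genes and summed lists) had 1 pair far from the other 3, by a gap to the nearest pair beyond Dixon's 95% critical share of the whole range. Chance alone would flag about 1 in 20 if all pairs were alike. The pairs were instead grouped into sides on PC1 scores of the same values, so that rate does not hold here. Even at that rate, 13 of 289 would be no excess. Some flagged lists also hold flagged rows, so the flags are not independent. The values below are therefore descriptions only. Which technical or other differences go with the flagged pairs was not tested.

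Pair 3 stood high for most of the flagged levels. The cytosolic ribosomal protein genes summed to 56380 CPM in pair 3 against 30150 to 33320 CPM in the others, the nuclear respiratory chain and ATP synthase genes to 15140 CPM against 9983 to 10520 CPM, and the oocyte maturation and cell cycle list to 23360 CPM against 14400 to 15130 CPM. Single rows of these kinds followed: ribosomal protein S7 (LOC117403348) was at 1627 CPM against 675 to 812 CPM, ATP synthase subunit C3 (LOC117426835) at 513 CPM against 243 to 282 CPM, and mitochondrial ribosomal protein L46 (LOC117428437) at 179 CPM against 128 to 134 CPM. The row hcrt, whose description names an inactive phospholipase C-like protein, was at 58.1 CPM against 0 to 6.45 CPM.

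Pair 1 stood apart for the mitochondrial genome, which summed to 1567 CPM against 518 to 695 CPM, with cytochrome c oxidase subunit II (Q747_mgp10) at 659 CPM against 291 to 303 CPM and subunit 1 (Q747_mgp11) at 419.5 CPM against 163 to 189 CPM. The partial CD22-like row LOC117433852 was at 44.1 CPM in pair 1 against 0 to 4.97 CPM. Bucky ball (LOC117400095) was low in pair 1, at 822 CPM against 916 to 933 CPM, a small difference. In pair 4, fibulin-7 (LOC117410703) was at 63.4 CPM against 2.66 to 10.2 CPM.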

How the results depend on the processing

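Raising the filter to a mean of 5 CPM left 1939 genes higher on side A, 1473 on side B, 1134 apart within side A and 1633 apart within side B, because fewer genes entered. A pseudocount of 2 left 1349 and 1669 apart within the sides. On the deposited FPKM 1330 genes were higher on side B, against 2315. With rows of one description summed the counts were 1579 and 1052. The other scalings, filters and single libraries kept these counts within 1.5 times. Leaving out 1 pair at a time gave 3545 to 3900 genes higher on side A and 2602 to 3028 on side B; the within-side counts could not be made without a pair. Of 248 named genes none changed direction under the alternatives where it was set apart, but calls were lost: of 52 higher on side A, 43 (without pair 4) to 52 stayed called, and of 51 higher on side B, 34 on FPKM, 37 with library size alone, 41 without pair 3 and 46 or more otherwise. List medians at least 0.2 from that of all kept genes changed sign in 12 cases. Over the 4 fits without 1 pair, the egg envelope median ran from -0.49 to 0.082 (highest without pair 3), the nuclear respiratory chain from -0.54 to 0.019 (pair 3), apoptosis from -0.0057 (pair 2) to 0.485, erythrocytes from -1.70 to 0.94 (pair 2; 0.42 without pair 3), adipocytes from -0.73 to 0.079 (pair 4), surface epithelium from -0.069 (pair 4) to 0.51 and smooth muscle from -0.026 (pair 1) to 0.52. With no filter, endothelium was at -0.20, smooth muscle at -0.0053 and erythrocytes at 0.11, and at 5 CPM smooth muscle was at -0.13. The causes of these changes other than the gene number were not tested. No paired analysis was possible because the comparison gives no test and the library numbers lie on different sides. With 2 pairs a side, the SD rests on very few samples, and genes near 1 CPM rest on few counts.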

Other observations

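Long non-coding RNA rows stood out from coding rows. Of 374 kept, 136 (36.4%) were higher on side A and 51 (13.6%) on side B, against 13.8% and 9.93% of 22147 rows typed as mRNA. The comparison was not matched by level, and the share higher on side A was 20.1% in the lowest bin by level and 5.26% in the highest. Ribosomal RNA rows that passed poly(A) capture had 0 of 71 higher on side A, against 14.1% of all kept genes. On side B 5 were higher (7.04%), below the 9.98% of all kept genes. By the length that the ratio of count to FPKM implies, the shares were flat: across 5 equal bins, 13.3% to 15.6% of genes were higher on side A and 9.38% to 10.2% on side B.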
